A study of Jaculus jaculus with 13 samples.

Results

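The genes described here were the genes whose kidney expression was high in the same 2 Jerboas, the control male CM01 and the rehydrated male RHM01. Expression was taken as CPM, the count of a gene per summed gene counts of the animal, scaled so that each animal sums to the same total. A gene was included when its mean count was 20 or more, when its CPM in CM01 and in RHM01 was above that of each of the other 11 animals, and when both values were at least 2 times the median of those 11 animals. This gave 242 genes of the 13828 with a mean count of 20 or more (1.75%) and of the 24433 in the table. The genes were therefore chosen by their levels in CM01 and RHM01, and those levels are described below without a test.

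Whole left kidneys of wild-caught adult male Jerboas (Jaculus jaculus) of unknown age, singly housed with dry food, were sequenced after poly(A) selection. The 4 controls drank freely, the 4 dehydrated animals had 11 days without water, and the 5 rehydrated animals had 7 days without water and then 3 days with it. These are the durations of the sample labels, and the methods of the study give somewhat different ones. Each animal was 1 replicate, and CM01 and RHM01 carry the same animal number (1) in their labels, which do not say what a shared number marks. Between 14071802 and 22949762 counts were assigned per animal, so that 3 counts, the least read as expression, correspond to 0.131 to 0.213 CPM.

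The kidney holds resident and passing leukocytes in addition to its tubule epithelium. Cells that present antigen carry peptides on MHC class II molecules to T cells, and interferon gamma, the type II interferon, raises this machinery together with chemokines that attract lymphocytes. Complement is a cascade of plasma proteins that marks targets for phagocytes and is started by antibody among other triggers.

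The table carries Ensembl gene identifiers without symbols, so leukocyte marker genes could not be looked up by name, and the genes are described by the Gene Ontology terms listed for them in the supplement of the study for its “brown” co-expression module. The lists were given whole for 96 of 221 terms and shortened for the others. That module was built from a network of samples that include these animals, so the terms are not independent evidence of what the genes share. Of the 242 genes, 122 (50.4%) were listed for at least 1 “brown” term, which is 48.0% of the 254 genes listed for that module. By comparison 0 of 109 genes listed for the “blue” module and 1 of 186 for the “turquoise” module were among the 242. Terms worded for immunity, defence, leukocytes or cytokines made up 167 of the 221 “brown” terms, and 110 of the 242 genes were listed for one of them. For the 120 genes outside the 122 no “brown” term was listed, which is what is meant below by no listed term, so that “immune-like” describes the annotated part only. In whole kidney RNA more cells of a type and more RNA per cell cannot be told apart.

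Together the 242 genes held 2.51% of all gene counts in CM01 and 1.43% in RHM01. In the other controls they held 0.272% in CM03, 0.189% in CM04 and 0.239% in CM06, and in the other rehydrated animals 0.265% in RHM02, 0.247% in RHM04, 0.252% in RHM07 and 0.188% in RHM08. The dehydrated animals had 0.264% in DHM02, 0.562% in DHM03, 0.184% in DHM05 and 0.203% in DHM06. CM01 stood at 10.2 times and RHM01 at 5.79 times the median of the 11 animals, high by choice of the genes, and DHM03 came next at 2.27 times. Much of the excess came from few genes, since the 10 most abundant held 58.8% of the sum in CM01 and 43.9% in RHM01. Without those 10 genes CM01 was at 5.92 times, RHM01 at 4.60 times and DHM03 at 1.69 times the median.

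**Figure D1:**
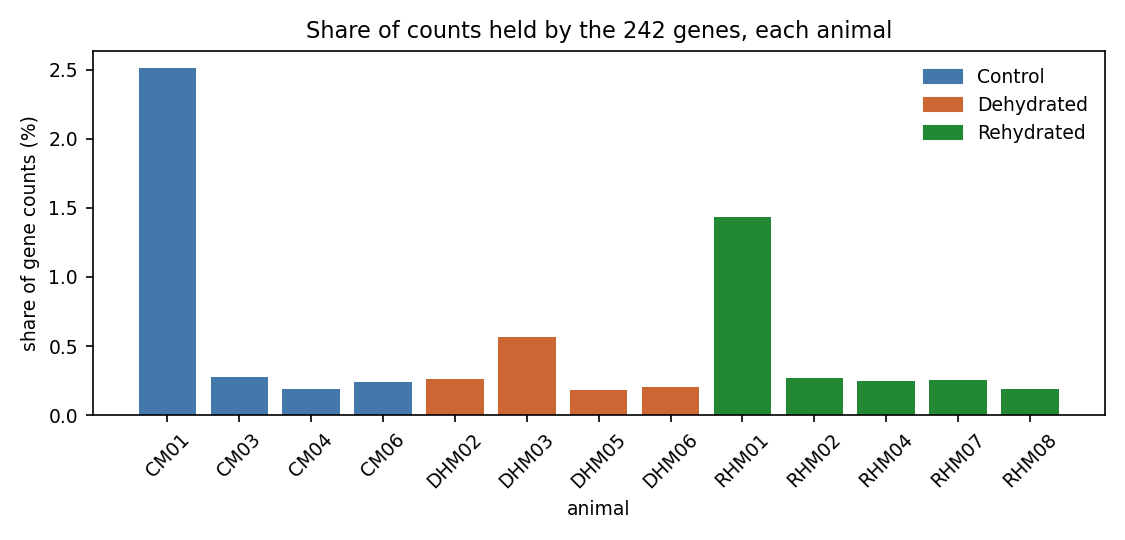
Share of all gene counts (%, vertical axis from 0) held by the 242 genes in each of the 13 animals, coloured by group. CM01 (2.51%) and RHM01 (1.43%) are far above the others by selection, and DHM03 (0.562%) is the highest of the other 11.

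The typical gene was 4.49 times the median of the 11 animals in CM01 (quartiles 3.11 and 8.77) and 5.05 times in RHM01 (quartiles 3.28 and 8.08). Both animals were at 5 times or more for 86 genes, at 10 times or more for 32 and at 20 times or more for 12. At the edge of the rule, ENSJJAG00000012029, the last gene inside that has a listed term, had 11.9 CPM in CM01 and 9.56 in RHM01 against a median of 4.74, so that the lower of the pair was at 2.02 times. The nearest gene outside, ENSJJAG00000011125, had 31.4 and 21.1 CPM against a median of 10.6, or 1.98 times. A further 64 genes were above all 11 animals in both CM01 and RHM01 with the lower of the pair at 1.5 to 2 times.

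**Figure D2:**
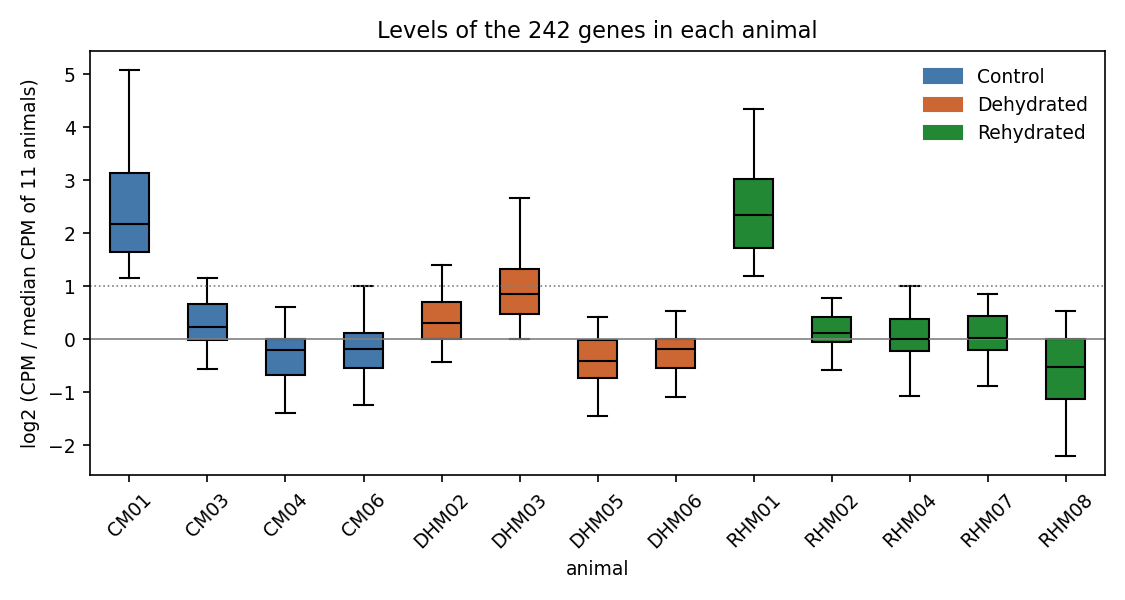
Level of the 242 genes in each animal as log2 of the CPM over the median CPM of the 11 animals other than CM01 and RHM01. Boxes span the quartiles with the median as a line, whiskers reach the 5th and 95th percentiles, animals with 0 counts of a gene are left out for it, and the dotted line marks 2 times the median. Beside the selected pair, DHM03 has the highest box and RHM08 the lowest.

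Counts by term are counts among the genes listed for the “brown” module, not among all genes of a term. Of the 19 genes so listed for antigen processing and presentation, 16 were among the 242, and of the 6 listed for the MHC class II protein complex, 5 were. ENSJJAG00000011199 (scaffold JH725509.1 from 12429871 to 12439521, JacJac1.0), listed for the MHC class II protein complex and for 62 terms in all, was the second most abundant of the 242 genes per kilobase of exon (2402 CPM per kb, mean of CM01 and RHM01). It had 3110 CPM in CM01 against 196, 59.0 and 69.5 in the other controls, and 1257 CPM in RHM01 against 133, 115, 85.4 and 58.6 in the other rehydrated animals. In the dehydrated animals it had 109 CPM in DHM02, 488 in DHM03, 53.9 in DHM05 and 74.2 in DHM06. CM01 and RHM01 thus lay outside the range of their groups, and DHM03 was above every other animal of the 11. The span of this gene overlaps an annotated gene on the opposite strand, and the reads were counted without strand.

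Some of the antigen presentation genes lay close together on 1 scaffold. Between 77273882 and 77629207 of JH725437.1 lay 8 of the 242 genes among 25 annotated genes, and 5 of the 8 were listed for antigen processing and presentation, 3 of these also for the MHC class II protein complex. ENSJJAG00000023598, from 77588367 to 77593081, had 171 CPM in CM01 and 52.5 in RHM01. In the other animals it had 4.62, 1.73 and 5.56 CPM in the controls, 3.86, 19.2, 1.41 and 1.75 in the dehydrated, and 3.06, 2.05, 1.78 and 2.34 in the rehydrated. DHM03, with 19.2 CPM, was again the highest of the 11 and well separated from the rest. ENSJJAG00000023713, from 77419393 to 77438145, was listed for 78 terms, among them antigen receptor signalling, and had 184 CPM in CM01, 136 in RHM01 and 68.5 in DHM03 against 9.03 to 28.5 in the other 10 animals. ENSJJAG00000012555, an MHC class II gene by its terms at 77527213 to 77531947, had 91.0, 30.9 and 17.4 CPM in the same 3 animals against 1.36 to 5.84. The other 5 genes of the stretch were at 3.49 to 24.0 times the median in RHM01 and 5.65 to 41.5 times in CM01. Elsewhere, ENSJJAG00000000085 (JH725884.1 from 26415 to 34998), also listed for the MHC class II protein complex, had 569 CPM in CM01, 300.4 in RHM01 and 155 in DHM03 against 17 to 78.2 in the other 10 animals. ENSJJAG00000022025, listed for antigen presentation and immune receptor activity, had 37.1, 33.3 and 7.18 CPM in those animals against 0.626 to 4.77. Members of a family that lie side by side can share reads, and how the counting divided such reads was not tested.

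With the most abundant gene of each term left out, the response to type II interferon had the largest sums, relative to the 11 animals, of the 20 terms compared here. With all genes, chemokine activity was as high in RHM01 (16.7 times the median, beside 16.4), and the median gene of the MHC class II protein complex was at 19.1 times in CM01, beside 6.48. Of 13 genes listed for the response to type II interferon, 12 were among the 242, and with the most abundant of them left out their summed CPM was 30.4 times the median of the 11 animals in CM01, 19.5 times in RHM01 and 6.79 times that of the other 10 in DHM03. ENSJJAG00000015984 (JH725448.1 from 36492764 to 36508873), listed for innate immunity and the response to type II interferon, had 1255 CPM in CM01 and 904 in RHM01. The other controls had 35.3, 17.9 and 17.1 CPM, the dehydrated 41.2, 223, 12.3 and 7.82 (DHM03 with 223), and the other rehydrated 24.4, 9.59, 21.7 and 11.8. ENSJJAG00000002928, further along the scaffold from 36599435 to 36608678 and listed also for interleukin-1 production, had 1247 CPM in CM01, 795 in RHM01 and 302 in DHM03 against 14.9 to 85.7 in the other 10 animals. All 4 annotated genes between 36492764 and 36665185 of that scaffold were among the 242. ENSJJAG00000015984 and ENSJJAG00000002928 made up most of the sum left for the response to type II interferon, 3341 CPM in CM01 and 2148 in RHM01. By its median gene the term was at 6.48 times in CM01 and 7.57 times in RHM01, not the highest of the terms compared. ENSJJAG00000023224 (JH725443.1 from 10429106 to 10471841) had 91.9 CPM in CM01, 31.4 in RHM01 and 17.3 in DHM03 against 0.171 to 3.01 in the other 10 animals. Of the 18 genes listed for defence response to virus, 14 were among the 242, and their 18 genes together were 9.30 times the median of the 11 in CM01, 4.96 times in RHM01 and, in DHM03, 2.00 times the median of the other 10. ENSJJAG00000023599 (JH725449.1 from 35227829 to 35230841), listed for innate immune activation and defence against virus, had another order among the 11 animals. It had 478 CPM in CM01 and 124 in RHM01, 15.5, 36.4 and 48.7 in the other controls, 10.3, 35.3, 9.28 and 8.17 in the dehydrated and 16.3, 13.3, 16.4 and 12.7 in the other rehydrated animals, so that the control CM06 came next and CM04 lay close to DHM03.

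Chemokines, secreted proteins that draw leukocytes along a gradient, had some of the highest ratios, at low levels. All 7 genes listed for chemokine activity were above the median of the 11 in both animals, and 4 of them were among the 242, while the other 3 had mean counts under 20. ENSJJAG00000020115 (JH725510.1 from 11854587 to 11855943), listed for chemokine activity and T cell migration, had 894 counts in CM01 and 1305 in RHM01, or 40.5 and 80.0 CPM, against 1 to 82 counts and a median of 13 in the other 11. Its neighbour ENSJJAG00000011373 (from 11833775 to 11838481), also a chemokine by its terms, had 534 counts in CM01 and 343 in RHM01, against 1 to 47 counts, with DHM03 highest, in the other 11. ENSJJAG00000024069 (JH725508.1 from 5273722 to 5277907) was higher in RHM01 (36.4 CPM) than in CM01 (11.9), and the highest of the other 11 was RHM07 with 7.04 CPM. Ratios at this depth are imprecise, since the median of ENSJJAG00000011373 rests on 7 counts. Of the 13 genes listed for cytokine receptor activity 6 were among the 242, and without ENSJJAG00000011199, which made up 96.3% of the sum in CM01, the others came to 2.88 times the median in CM01 and 2.75 times in RHM01.

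Complement genes exceeded the median by a similar factor in both animals once the most abundant gene was set aside. Of 9 genes listed for complement activation 8 were among the 242, and all 8 listed for the humoral response mediated by circulating immunoglobulin were. ENSJJAG00000019955 (JH725616.1 from 1845651 to 1863133), listed for complement activation, had 1837 CPM in CM01, 648 in RHM01 and 455 in DHM03, against 40.7 to 132 in the other 10 animals. The other 8 genes together were 6.40 times the median of the 11 in CM01, 6.62 times in RHM01 and, in DHM03, 2.33 times the median of the other 10. Another complement gene on that scaffold, ENSJJAG00000020383 (1808627 to 1815142), had 513, 393 and 163 CPM in CM01, RHM01 and DHM03 against 32.1 to 126.

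A group of 3 adjacent complement genes was higher in RHM01 than in CM01. ENSJJAG00000017879, ENSJJAG00000012870 and ENSJJAG00000016238 lie between 12179840 and 12197078 of JH725459.1, with no other annotated gene between them. They had 77.2, 62.4 and 83.7 CPM in CM01 and 140, 132 and 140 CPM in RHM01, in that order. In DHM03 they had 29.8, 25.1 and 46.1 CPM, and in the other 10 animals the ranges were 5.16 to 17.3, 2.92 to 12.2 and 5.63 to 23.3 CPM. The 3 genes kept the same order of animals at the top, with RHM01 first, CM01 next and DHM03 after it.

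Genes listed for the T cell receptor complex had low counts. ENSJJAG00000021120 (JH725538.1 from 7031969 to 7043645), listed for the T cell receptor complex and T cell selection, had 6.35 CPM in CM01, 5.15 in RHM01 and 2.91 in DHM03, against 0.0554 to 0.730 in the other 10 animals. All 6 genes listed for the T cell receptor complex were above the median of the 11 in both animals, and 3 were among the 242, the other 3 having mean counts under 20. T cell selection held 6 of 10 listed genes, antigen receptor signalling 11 of 17 and B cell proliferation 9 of 12, and with the most abundant gene of each left out these 3 sums were 2.17 to 3.10 times the median in CM01 and 2.27 to 3.52 times in RHM01. ENSJJAG00000005803, listed for antigen receptor signalling, had 4.53 CPM in CM01, 2.45 in RHM01 and 1.92 in DHM03 against at most 0.871 in the other 10, and its span overlaps a gene on the same strand. Of the 10 genes listed for T cell selection 9 were above the median of the 11 in both animals. For the T-helper 1 response 2 of 10 were among the 242, and the sum of the 10 was 1.58 times the median in CM01 and 2.07 times in RHM01.

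Summed levels for cell killing and phagocytosis were higher in RHM01 than in CM01. For cell killing 10 of 13 listed genes were among the 242, 9 of these 10 were higher in RHM01, and the sum of the 13 was 437 CPM in CM01, 747 in RHM01, 209 in DHM03 and 72.0 to 224 in the other 10 animals. ENSJJAG00000012531 (JH725482.1 from 4846455 to 4848570), listed for T cell mediated immunity and cell killing, had the largest ratio of all 242 genes, taken as the mean of both animals. It had 458 counts in CM01 and 371 in RHM01, or 20.8 and 22.7 CPM. The other controls had 13, 5 and 1 counts, the dehydrated 15, 48, 0 and 0 (DHM03 with 48), and the other rehydrated 4, 8, 0 and 3. A count of 0 allows up to 0.156 CPM in DHM05, 0.150 in DHM06 and 0.213 in RHM07, counting error only, and the median of 4 counts makes the ratio of 105 imprecise. ENSJJAG00000016568 (JH725438.1 from 21048931 to 21056563), listed for defence against Gram-positive bacteria and cell killing, had 139 CPM in RHM01 and 45.2 in CM01 against 3.39 to 19.2 in the other 11 animals. For phagocytosis 12 of 21 listed genes were among the 242, with sums of 576 CPM in CM01, 816 in RHM01 and 135 to 320 in the 11. Its genes were mixed in direction, with 9 of the 21 higher in CM01, and without ENSJJAG00000024349, the most abundant gene of both terms, its sums were 304 CPM in CM01 and 363 in RHM01. ENSJJAG00000023366, listed for leukocyte chemotaxis and degranulation, had 8.07 CPM in CM01, 7.35 in RHM01 and 4.68 in DHM03 against 0.401 to 1.56, and ENSJJAG00000018481, listed for cell killing, had 4.22, 4.60 and 1.09 against 0.253 to 1.15. Of 20 genes listed for nuclear chromosome segregation, a function of dividing cells, 1 was among the 242. This gene, ENSJJAG00000023131, had 8.03 CPM in CM01, 6.50 in RHM01 and 3.02 in DHM03 against 1.40 to 2.55. The sum of the 20 was 72.9 CPM in CM01 and 106 in RHM01, against 31.2 to 64.4 in the 11. These sums were 1.65 and 2.40 times the median, and 19 of the 20 genes were above the median of the 11 in both animals.

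**Figure D3:**
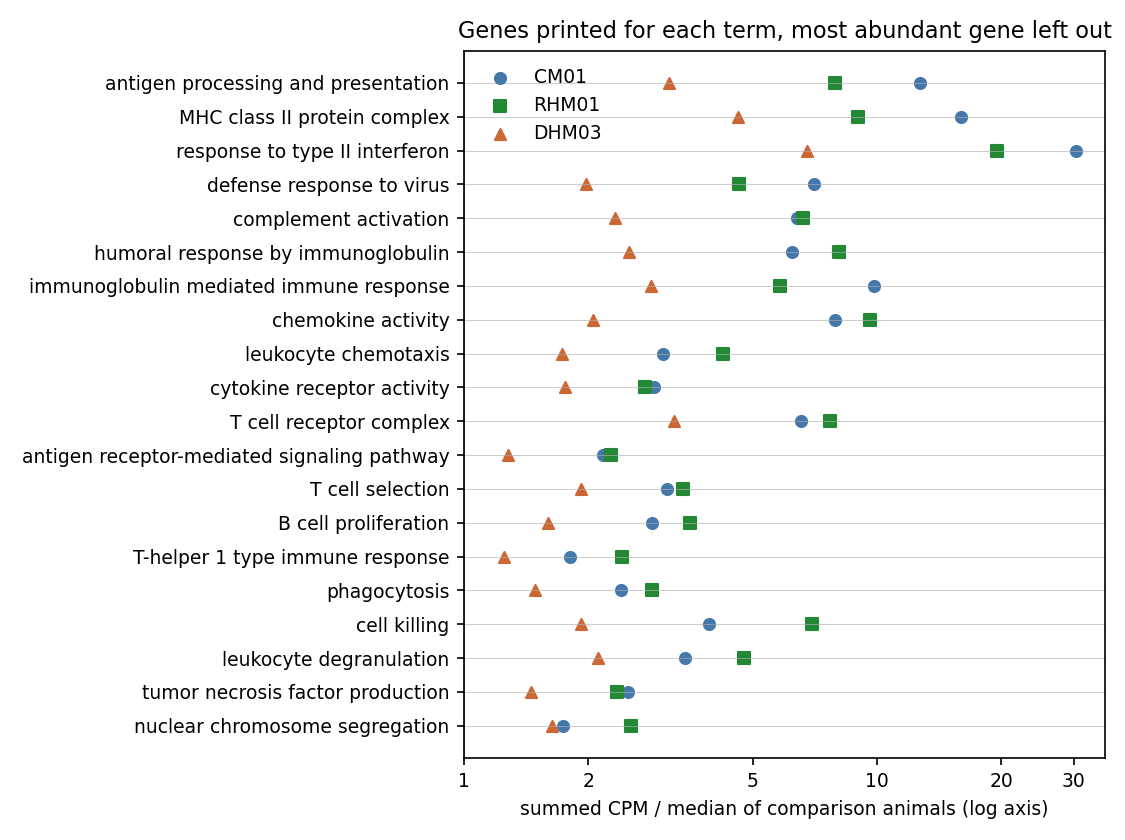
Summed CPM of the genes listed for each of 20 “brown” terms whose gene lists are given whole, with the most abundant gene of each term left out, as a multiple (log axis) of the median of the 11 animals for CM01 (circles) and RHM01 (squares), and of the other 10 for DHM03 (triangles). The terms overlap in genes. The response to type II interferon is the farthest right (30.4 in CM01, 19.5 in RHM01), and DHM03 is the lowest of the 3 animals in every term drawn. Most of the sum for the response to type II interferon comes from ENSJJAG00000015984 and ENSJJAG00000002928.

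The 2 animals did not share all of what was high in each. In CM01, 428 genes with a mean count of 20 or more were above all 11 animals and at least 2 times their median, and 242 of these (56.5%) were so in RHM01 as well. In RHM01 there were 542 such genes, of which the same 242 made up 44.6%. Of the 186 genes high in CM01 only, 16 (8.60%) were listed for a “brown” term, and of the 300 high in RHM01 only, 35 (11.7%), against 50.4% of the 242. Of the 13828 genes with a mean count of 20 or more, at most 254 were listed. Both shares are thus above that of all genes. The opposite pattern, below all 11 animals and at most the median divided by 2, was found for 194 genes in CM01 and 1248 in RHM01, and for 11 genes in both. The 10 most abundant of all genes held 11.2% of the counts in CM01, the lowest share of the 13 animals, and 17.5% in RHM01, the highest.

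Between CM01 and RHM01 the levels of the 242 genes differed in either direction. With 119 genes higher in CM01 and 123 higher in RHM01, the median log2 ratio of CM01 to RHM01 was −0.02 (quartiles −0.54 and 0.46, range −2.08 to 2.35). At least a 2-fold difference was found for 26 genes higher in CM01 and 19 higher in RHM01, together 18.6% of the 242. Among all genes with a mean count of 20 or more it was found for 2439 higher in CM01 and 880 higher in RHM01, together 24.0%. With 1 animal on each side these are values of 2 animals and have no replicate check. The 242 genes were chosen as high in both animals, which bears on how far apart the pair can lie. Nothing is read from the 18.6% beside the 24.0%. The genes with listed terms farthest towards CM01 were ENSJJAG00000021915, listed for the response to bacterium (317 against 77.6 CPM), ENSJJAG00000023599 (478 against 124), ENSJJAG00000023598 (171 against 52.5), ENSJJAG00000012555 and ENSJJAG00000023224, all but the first of which are described above. Those farthest towards RHM01 were ENSJJAG00000016568, ENSJJAG00000024069, ENSJJAG00000017713, listed for B cell proliferation (27.3 CPM in RHM01, 9.43 in CM01), ENSJJAG00000017338, listed for innate immunity (7.97 and 3.26), and ENSJJAG00000023880, listed for T and B cell proliferation (15.1 and 6.39). The most abundant of all 242 genes per kilobase, ENSJJAG00000000533 (JH725649.1 from 26349 to 28397), has no listed term and had 4225 CPM in CM01 and 998 in RHM01, against 71.7 to 436 in the other 11 animals. ENSJJAG00000013378 (JH725452.1 from 19005634 to 19014845), among the 10 most abundant and listed for the extracellular region only, had 468 CPM in CM01 and 514 in RHM01, against 106 to 290.1 in the other 11, with DHM03 highest.

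**Figure D4:**
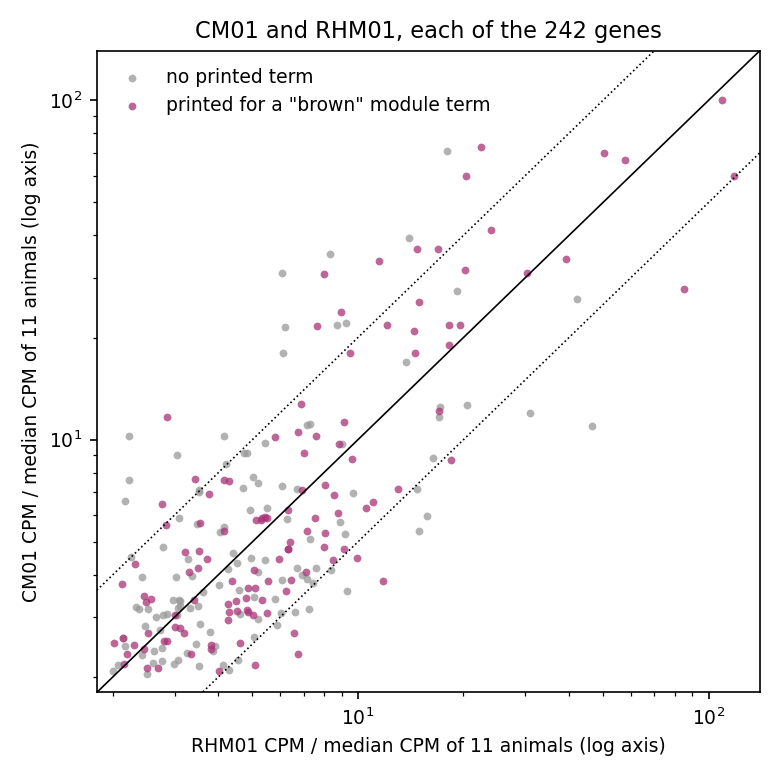
Each of the 242 genes by its CPM in RHM01 (horizontal) and CM01 (vertical), both divided by the median CPM of the other 11 animals, on log axes. The solid line marks equal levels and the dotted lines a 2-fold difference, within which 197 of the 242 genes lie, and genes with and without a listed term are spread over the same range.

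Of the 254 genes listed for “brown” terms, 132 were not among the 242. Mean counts under 20 accounted for 33 of them. Of the other 99, 35 were above all 11 animals in both CM01 and RHM01 but under 2 times the median, 13 were over 2 times the median but not above all 11, and 51 met neither condition. For 4 of those 13, DHM03 alone kept the gene from being above all 11.

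Among the 11 animals whose order the rule did not use, the genes still did not lie evenly. The study had already described its “brown” module as high in DHM03 as well as in CM01 and RHM01. DHM03 was the highest of the 11 for 123 of the 242 genes (50.8%), beside 7.09% of all genes with a mean count of 20 or more. It was above the median of the other 10 for 225 of the 242, and at least 2 times that median for 116 (47.9%), beside 2.43% of all genes. The highest ratios of DHM03 with a listed term were those of ENSJJAG00000012531 (13.2 times the median of the other 10), ENSJJAG00000015984 (12.8), ENSJJAG00000023224 (12.3), ENSJJAG00000019790, listed for phagocytosis (10.8), and ENSJJAG00000021120 (10.2). DHM02 followed, highest for 30 genes (12.4%, beside 10.2% of all genes). At the other end RHM08 was the lowest of the 11 for 76 genes (31.4%, beside 16% of all genes). These shares describe 11 animals, whose values also entered the network behind the “brown” terms, and carry no test, and because the genes were required to be lower in all 11 than in the pair, genes in which DHM03 was as high as the pair are missing from them.

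Exon length of the 242 genes had a median of 1308 bases, against 1349 for all genes with a mean count of 20 or more. The genes lay on 100 scaffolds (no such count was made for all genes), and 75 of them fell in 32 clusters of 2 to 8 genes less than 200 kb apart. The spans of 27 genes overlapped another annotated gene, 19 of them on the opposite strand. Of the tubule genes, the water channels AQP1, AQP2 and AQP3 and SCNN1A, a subunit of the epithelial sodium channel, were looked at, and these 4 were present in every animal. AQP1 of the proximal tubule had 724 CPM in CM01 against 689 to 806 in the other controls, and 327 in RHM01 against 413 to 674 in the other rehydrated animals. AQP2 of the collecting duct had 195 CPM in CM01 against 205 to 269, and 98.7 in RHM01 against 162 to 294. AQP3, also of the collecting duct, had 42.3 CPM in CM01 against 51.8 to 97.8, and 56.9 in RHM01 against 65.2 to 85.8. SCNN1A had 206 CPM in CM01 against 203 to 245, and 394 in RHM01 against 347 to 397. RHM01 was below the other rehydrated animals for all 3 aquaporins, and below all 11 animals for AQP1 and AQP2. CM01 was below the other controls for AQP2 and AQP3, and below all 11 animals for AQP3. Both were within the range of their groups for SCNN1A. The part of such differences in the levels of the 242 genes was not tested.

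Whether the genes differed with dehydration or rehydration was asked in the 11 animals other than CM01 and RHM01. These 11 animals also entered the rule, which requires each of them to be below the pair, so that genes with high levels in a dehydrated or rehydrated group were removed by the choice. The shares of the 242 genes called below are partly set by it, and nothing is read from their standing beside the shares of all genes. Per group, the summed CPM of the 242 genes was 2334 ± 416 in the controls (SD, n = 3), 3032 ± 1759 in the dehydrated (SD, n = 4) and 2380 ± 341 in the rehydrated animals (SD, n = 4). The groups overlapped, and the spread of the dehydrated group came from DHM03, with 5621 CPM against 1844 to 2636 in the other 3. All 242 genes passed the filter of the fit, a mean count of at least 8. The fitted log2 fold changes of these genes had larger standard errors than those of all genes, with medians of 0.47 and 0.17 for dehydration compared to control. The study reports lower RNA integrity in its rehydrated group than in the other groups. From the clustering of samples it proposes that this was not a main driver of expression. RNA quality thus runs with the group in both comparisons of rehydrated animals, and its part was not tested.

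After dehydration compared to control, none of the 242 genes was a DEG (0 genes at an adjusted p under 0.01, edgeR over 15001 genes), beside 0.94% of all genes tested. At an unadjusted p under 0.05 there were 25 of the 242, 16 higher and 9 lower (10.3%), beside 26.7% of all genes, 13.1% higher and 13.6% lower. DESeq2 called 6 of the 242 (2.48%), beside 8.43% of all genes. The median log2 fold change was 0.29, beside 0.02 over all genes, and 178 of the 242 were above 0. This depended on DHM03. Without it the median was −0.07, with 110 of 238 genes above 0.

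After rehydration compared to control, 5 of the 242 genes (2.07%) were DEGs, 1 higher and 4 lower, beside 22.4% of all genes tested, 8.95% higher and 13.4% lower. At an unadjusted p under 0.05 there were 29 (12%), beside 46.7% of all genes, and DESeq2 called 7 (2.89%), beside 30.1%. The median log2 fold change was −0.03, beside 0.03 over all genes, with 117 genes above 0 and 125 below. With the animal number as a replicate block the median was 0.27 (148 of 242 above 0). In that fit RHM07 and RHM08 are each alone with their number and drop out of the comparison. The sign of the median also turned with single animals. The median was 0.23 without CM03 (150 of 242 above 0) and 0.07 without RHM08 (133 above 0), and it was −0.17 without CM04 (92 of 241 above 0). The higher gene, ENSJJAG00000021971 (no listed term), had 0.871, 0.866 and 0.758 CPM in the controls and 1.51, 2.88, 3.13 and 2.57 in the rehydrated animals, without overlap. On the log2 scale it was higher by 1.56 (SE 0.32, edgeR adjusted p = 0.00326), and it was not called with any 1 of the 3 controls left out. Of the 4 lower genes, ENSJJAG00000023808 (no listed term), which was among the 10 most abundant of the 242, had 14.3, 38.8 and 90.3 CPM in the controls and 9.29, 7.09, 14.5 and 6.40 in the rehydrated animals. The groups overlapped in CM03 and RHM07, which had 14.3 and 14.5 CPM. Its fitted difference was −2.41 (log2, SE 0.54, edgeR adjusted p = 0.00504). Without CM06, which had 90.3 CPM, the difference was −1.55 (edgeR adjusted p = 0.0314), and the call was also lost without CM04, RHM02, RHM04 or RHM08. ENSJJAG00000018629 (no listed term) had 25.4, 21.3 and 22.5 CPM in the controls and 10.9, 10.4, 8.60 and 5.72 in the rehydrated animals, without overlap, a difference of −1.41 (log2, SE 0.35, edgeR adjusted p = 0.00846), and of the 11 animals only DHM03 or DHM05 could be left out with the call kept. The other 2 lower genes had log2 fold changes of −0.69 and −2.0, and no gene with a listed term was called. When each of the 11 animals was left out in turn, between 0 (without CM04, and without CM06) and 9 (without DHM03) of the 242 genes were called, where 2117, 2223 and 3091 of all genes were called in the same fits.

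After rehydration compared to dehydration, 1 of the 242 genes (0.413%) was a DEG, a lower one, beside 5.68% of all genes tested in either direction and 3.94% lower. At an unadjusted p under 0.05 there were 29 (12%), beside 34.9% of all genes, and DESeq2 called 4 (1.65%), beside 15.6%. ENSJJAG00000011600 (no listed term), whose span overlaps a gene on the opposite strand, had 4.02, 5.88, 5.79 and 2.76 CPM in the dehydrated and 1.30, 1.44, 2.20 and 1.37 in the rehydrated animals, without overlap. The difference was −1.52 (log2, SE 0.34, edgeR adjusted p = 0.00678). It stayed called with CM04 or DHM06 left out, and not with any 1 of the other 9 animals left out. The median log2 fold change of the 242 genes was −0.24, beside −0.02 over all genes, and 0.08 without DHM03.

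In fits without a replicate block, the direction of the 242 genes between the groups turned on whether CM01 and RHM01 were fitted. With all 13 labelled animals the median log2 fold change was −0.69 for dehydration compared to control, with 229 of 242 genes below 0, and 0.62 for rehydration compared to dehydration, with 220 above 0, the opposite of the 11 animals in both. For rehydration compared to control, where CM01 and RHM01 lay on either side, it was −0.13 with both animals. It was −0.98 with RHM01 alone left out, with 226 genes below 0, and 0.89 with CM01 alone left out, with 222 above 0. Over all genes tested the medians of these fits lay between −0.02 and 0.03. Since the genes were chosen by their level in the pair, these directions follow from the choice in fits of the pair without a replicate block. The 13 animals fitted with the animal number as a replicate block gave other medians. In that fit CM01 and RHM01 form a block of their own, which takes up the level they share. A return to the signs of the 11 animals follows from this design, and nothing is read from it. For dehydration compared to control it was 0.34 (182 genes above 0). For rehydration compared to dehydration it was −0.11 (143 below 0), and both signs are those of the 11 animals. For rehydration compared to control it was 0.16 (153 above 0). Without that block, none of the 242 genes was called by edgeR in any of the 3 comparisons with 13 animals (0 genes). Of all genes 0.478% were called for dehydration compared to control, 28.8% for rehydrated against control animals and 8.19% for rehydrated against dehydrated animals. In that order, at an unadjusted p under 0.05 there were 18 (7.44%, all lower), 6 (2.48%) and 7 (2.89%, all higher), beside 24.2%, 51.3% and 37.9% of all genes. The choice of the genes by the pair also bears on these counts, so they test nothing and nothing is read from them. The pair widened the spread of these genes, and the median standard error for dehydration compared to control was 0.74 with 13 animals and 0.47 with 11.

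**Figure D5:**
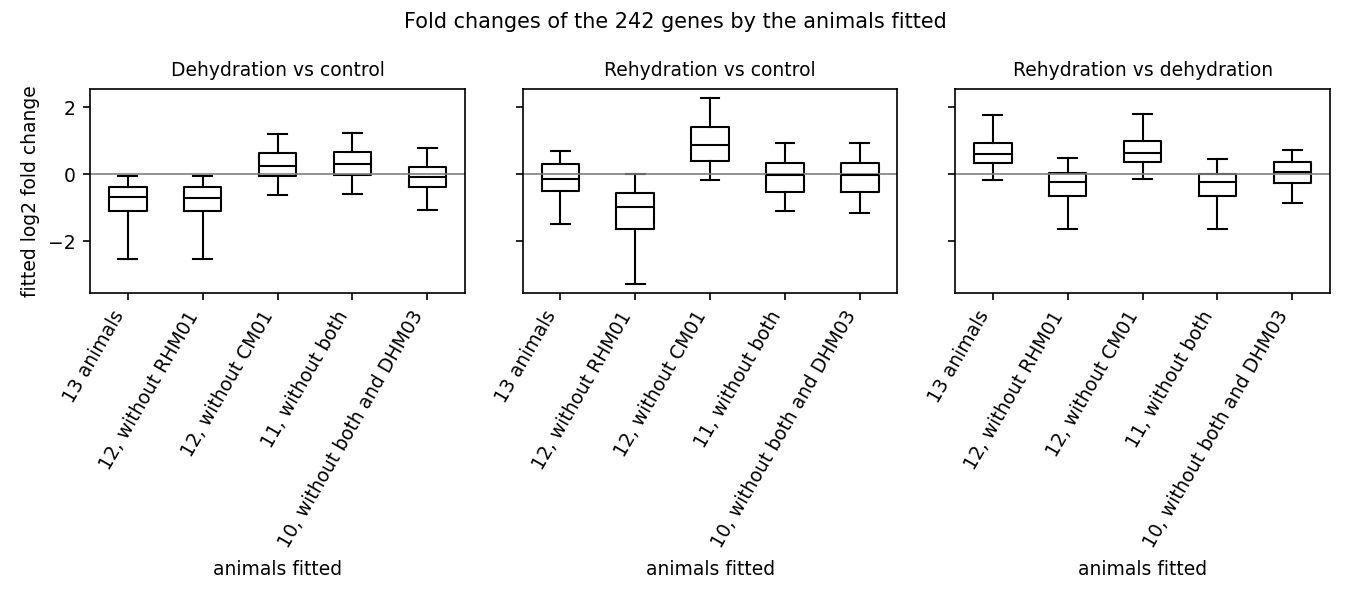
Fitted log2 fold changes (edgeR) of the 242 genes in the 3 comparisons by the animals fitted. Boxes span the quartiles with the median as a line, and whiskers reach the 5th and 95th percentiles. The median for dehydration compared to control moves from −0.69 with 13 animals to 0.29 with 11 and to −0.07 when DHM03 is left out as well.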

How the data were processed

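The data were RNA-seq gene counts of whole left kidney from 13 male Jerboas. The authors trimmed and aligned paired reads to JacJac1.0 and counted them per Ensembl gene with featureCounts (Subread 1.6.2) without strand, and the deposited values are raw counts, with no normalization. The deposited table also gives gene coordinates and the exon length of each gene, in bases. A further 2 per-sample columns had no label among the samples and were left out, so no fit here is the fit of the study, which used more animals and DESeq2.

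The genes and the term groups were chosen with earlier results of these data known. The labels give each animal its group, and names such as CM01 are those of the table. CPM used the column sums. Counts were scaled by TMM, filtered at a mean count of at least 8 and fitted with edgeR 4.0.16 in R 4.3.3, all 3 groups in 1 model (quasi-likelihood test, Benjamini-Hochberg adjustment over all genes tested, adjusted p under 0.01), in 11 animals without CM01 and RHM01. DESeq2 1.42.0 was an alternative. The standard error is the size of the log2 fold change divided by the square root of the F statistic. Figures were drawn with matplotlib 3.10.9 and tables made with Python 3.11.15 and pandas 2.3.3.

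Lists of cell type markers by symbol could not be applied, because the sources used here pair few identifiers with symbols, and Gene Ontology terms took their place. Terms with over 21 genes are listed in part and were not used for groups. The genes named are, by role, up to 4 with the largest ratio, the 10 most abundant (of which those with no term are given only in part), the 5 with the largest and smallest ratio of CM01 to RHM01, genes next to the 2-fold limit, called genes, and the 5 with the largest ratio in DHM03. Neighbours on a scaffold and genes of some terms were added after their values were seen. Identifiers of the aquaporins and SCNN1A came from the primer list of the study, where those of AQP1, AQP2 and SCNN1A carry an additional zero that was removed.

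The 22 pairs of animals within groups were farther apart than sampling of counts allows (chi-square over its degrees of freedom 29.1 to 83.3), so precision comes from the spread between animals. The fit was tested on simulated data for dehydration compared to control in 11 animals with 15001 genes, where edgeR called 54% of 2-fold and 84% of 4-fold changes and 1 of 14801 unchanged genes. The changed genes were drawn from all genes. The 242 genes had larger standard errors (median 0.47, beside 0.17 over all genes), so these rates do not carry over to them. The alternatives were other scaling, filters, thresholds, tools and sets of animals, and the animal number as a replicate block.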

Additional observations from a re-analysis of the deposited data

Results flagged for a closer look

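In 44 sets of animals, made from 21 summed levels in the groups of 4 or 5, the gap between the farthest animal and its nearest neighbour, divided by the range of the group, passed Dixon's 95% limit in 11. Chance passes this limit in about 1 of 20 independent groups, and the 11 cannot be set against that rate, since 2 follow from the choice of the genes, many of the others share genes, and all term lists come from a module built by co-expression over samples that include these animals. The gap was 0.964 for CM01 among the 4 controls and 0.938 for RHM01 among the 5 rehydrated animals in the summed CPM of the 242 genes, which is what the genes were chosen for.

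DHM03 stood apart from the other 3 dehydrated animals in 7 sums that share many genes. The lists come from a module built on samples that include DHM03, so that its own levels took part in choosing the genes, and the gaps are a description. The gap was 0.841 for the MHC class II protein complex, 0.837 for the response to type II interferon, 0.839 for the humoral response mediated by circulating immunoglobulin and 0.854 for the immunoglobulin mediated immune response. It was 0.851 for cytokine receptor activity, 0.867 for T cell selection and 0.856 for B cell proliferation. In 6 of these 7 sums, all but the humoral response, ENSJJAG00000011199 is the most abundant gene in CM01, with 48.0% to 96.9% of the sum. Among the 4 rehydrated animals without RHM01, RHM07 was apart for chemokine activity (0.912, 20.3 CPM against 9.77 to 10.7) and RHM04 for phagocytosis (0.888, 282 CPM against 200.5 to 209.6). The cause of these differences was not tested.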

How the results depend on the processing

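The rule gave 237 genes with TMM-scaled CPM, 243 with DESeq2 size factors, 306 at 1.5 times, 171 at 3 times, 293 at a mean count of 8 and 168 at 50, and 240 to 249 with 1 of the other 11 animals left out.

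Of the 242 genes, edgeR called 0 after dehydration compared to control, 5 after rehydration compared to control and 1 after rehydration compared to dehydration, in that order in what follows. DESeq2 called 6, 7 and 4, and an adjusted p under 0.05 gave 6, 15 and 4. All 13 animals gave 0, 0 and 0, CM01 alone left out 0, 1 and 0, RHM01 alone left out 0, 3 and 0, and the fit of only the groups compared 0, 3 and 1. Leaving out each of the 11 animals in turn gave 0 to 2, 0 to 9 and 0 to 2. The second count was 9 without DHM03, 3 without DHM05, 2 without DHM02, DHM06, RHM02 or RHM07, 1 without RHM04 or RHM08 and 0 without CM04 or CM06. The count was 5 without CM03, where the first was 2. The third was 2 without CM04 and 0 without CM03, CM06, DHM02, DHM03, DHM05 or any 1 rehydrated animal. Other scaling and filters changed none of these 3 counts.

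Of all genes, 141, 3358 and 852 were called. For dehydration compared to control the count was 72 with 13 animals, 37 with CM01 and 235 with RHM01 alone left out, 1264 with DESeq2 and 76 with only the groups compared. For rehydration compared to dehydration it was 2335 with DESeq2 and 375 with only the groups compared. At an adjusted p under 0.05 the counts were 1356, 5595 and 2953, and with 1 animal left out 3 to 196, 2117 to 3412 and 97 to 1307.

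Same-numbered animals of different groups had correlations of their deviations from the group means of 0.029 to 0.123 over 4 pairs in the 11 animals. Their mean was 0.081, against −0.009 over the 36 other pairs. With 13 animals the mean was 0.119 over 5 pairs, against −0.011 over the others. There CM01 and RHM01 had 0.337, CM04 and RHM04 0.158 and CM03 and DHM03 −0.016. The labels do not say what a shared number marks, and the numbers were not taken as pairs. With the animal number as a replicate block, 0 of all genes and 0 of the 242 were called in each comparison with 11 animals. That fit could call little. DHM05, RHM07 and RHM08 are each alone with their number and drop out of the comparisons. CM04 and RHM04 are the only control and rehydrated animals that share a number, and few degrees of freedom remain. Nothing is read from the absence of calls. With 13 animals and the replicate block, 0, 987 and 0 of all genes and 0, 1 and 0 of the 242 were called.

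The log2 fold changes of the 4 genes named with a test kept their sign in every alternative run. Their adjusted p ranged from 0.000236 to 0.231 for ENSJJAG00000021971, 0.000529 to 0.869 for ENSJJAG00000023808, 0.000336 to 0.248 for ENSJJAG00000018629 and 8.27e-05 to 0.314 for ENSJJAG00000011600. Depth limits the genes with few counts in the 11 animals, of which 4 had 0 counts in at least 1 animal.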
